A study of Mus musculus with 8 samples.

Results

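The astrocyte class holds 720 of 12447 nuclei read by single-nucleus RNA sequencing from C57BL/6 wild-type mice, all from spinal cord at a low thoracic level. It was chosen by measured values. Of the annotated classes other than neurons, microglia and oligodendrocytes, it is the class with the highest level of Aqp4, which encodes the water channel of astrocyte endfeet. Aqp4 stood at 1130 CPM in it, that is UMIs (counted transcript molecules) per 1000000 UMIs of the class, against 32.7 CPM in vascular nuclei and 9.37 CPM in oligodendrocyte precursors (OPC).

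The 8 libraries come from 3 experiments on neurons of the walking circuits. Experiment 1 sorted uninjured cord into GFP-positive traced neurons and GFP-negative untraced nuclei, with 2 libraries of each. Experiment 2 has 2 libraries from mice after a hemisection, a cut through 1 side of the cord, and 1 library from an uninjured control. Experiment 3 has 1 library of regenerating traced neurons. All mice carried the same strain and genotype labels. The sources used here give neither sex and age nor the time between cut and collection, and nothing says whether replicate libraries came from separate mice. P-values therefore measure only the spread between these libraries. The class held 103 and 10 nuclei in untraced libraries 1 and 2, 6 and 7 nuclei in hemisection libraries 1 and 2, and 594 nuclei in the uninjured control. The traced and regenerating libraries held 0. The class had 408245 and 30225 UMIs in the untraced libraries, 25987 and 29679 after hemisection and 2406316 in the control, so 1 UMI is worth 38.5 and 33.7 CPM in the hemisection libraries and 0.416 CPM in the control. Every value after hemisection rests on these 13 nuclei.

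Astrocytes are the glia that clear glutamate and potassium from around synapses, move water at blood vessels, share ions and metabolites through gap junctions, and supply cholesterol in lipoproteins. In grey matter they are bushy and rich in transporters, and in white matter they are fibrous and rich in the intermediate filament protein GFAP. After spinal cord injury astrocytes near the lesion raise GFAP and form a border around it, a state called reactive.

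The markers went with the label. Slc4a4, a sodium bicarbonate cotransporter gene, stood at 3867 CPM in the class and at 103 CPM in the next highest class. Slc7a10, which encodes a transporter of D-serine and glycine, stood at 992 against 24.1 CPM, and Sox9, the transcription factor gene of the glial lineage, at 141 against 6.76 CPM. Gja1, which encodes the gap junction protein connexin 43, was also found in vascular nuclei, at 166 against 1054 CPM. All 13 astrocyte markers had UMIs in each of the 5 libraries with nuclei of the class. The share of nuclei with an Aqp4 UMI was 90.7% in the class, with a median of 4036.5 UMIs per nucleus over all genes, and 5.10% in oligodendrocytes. Slc1a3, a glutamate transporter gene and common astrocyte marker, set the class apart least, with 297 CPM against 340 CPM in vascular nuclei. Since the classes were made from these same values, the levels describe the class and were not tested.

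**Figure D1:**
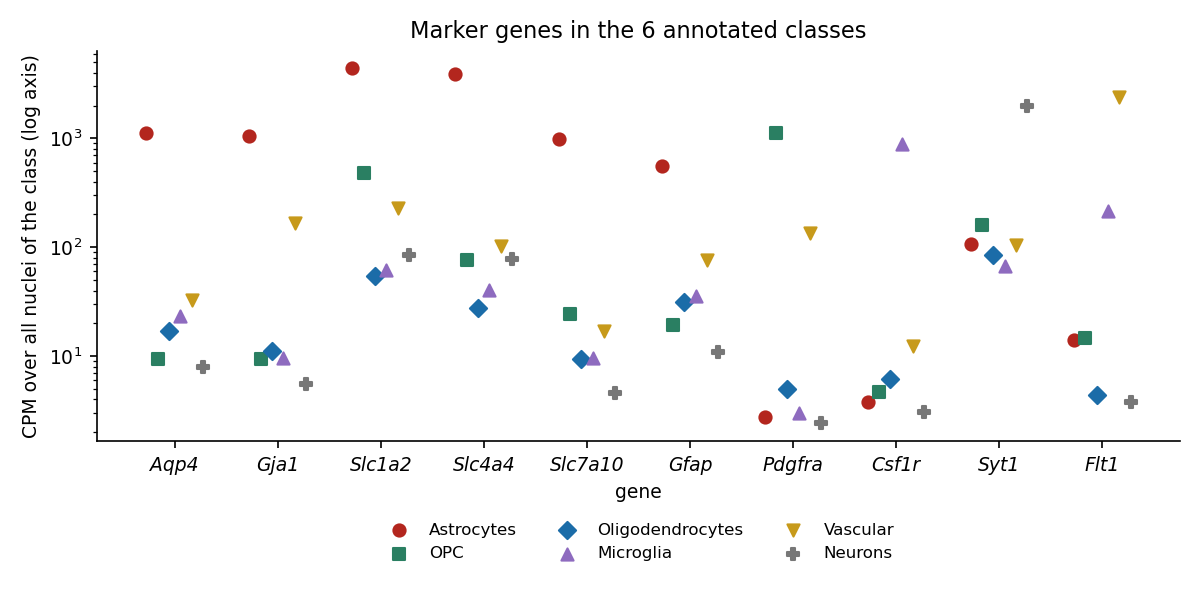
Level of 10 marker genes (CPM over all nuclei of a class, log axis) in the 6 annotated classes, 1 point per class. The class is highest for the 6 astrocyte genes on the left, and Pdgfra (2.76 CPM) and Csf1r (3.79 CPM), markers of OPC and microglia, are near the bottom in it.

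Genes that set the class apart beyond the usual markers were Dao, which encodes the enzyme that degrades D-amino acids such as D-serine, Trp63, a p53 family transcription factor gene, and Slc39a12, a zinc transporter gene. Dao stood at 122 CPM, 108 times the next class, Trp63 at 391 CPM, 69.4 times, and Slc39a12 at 975 CPM, 61.8 times. Phkg1, which encodes the catalytic subunit of glycogen phosphorylase kinase, stood at 701 CPM, 29.6 times the next class. The most abundant transcripts were those of long neural adhesion genes and channels, led by Lsamp at 14658 CPM, Gpc5, a heparan sulfate proteoglycan gene, at 9557 CPM and Trpm3 at 7508 CPM. These CPM levels are not corrected for gene length, so they give no order of transcript number between genes.

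The nuclei of the class fell into kinds that differed in Gpc5 and Gfap. When each nucleus was thinned to 1000 UMIs, which left out 5 of the 720 nuclei, 139 of 715 had 0 to 2 Gpc5 UMIs and the median nucleus had 10. A Gfap UMI was found in 75.5% of these Gpc5-poor nuclei and in 11.8% of the 576 others. Clustering set apart 94 nuclei with Gpc5 at 84.7 CPM and Slc7a10 at 5.13 CPM, here called the Gpc5-low sub-cluster. They held more than any of the 3 other sub-clusters of all 6 white-matter markers, with Gfap at 2294, Aqp4 at 2376, Slc38a1 at 1224, Cd44 at 452, Id3 at 216 and Vim at 177 CPM. Myoc, which encodes the secreted protein myocilin, stood at 788 CPM and C3, the central complement component gene, at 654 CPM. A2m, the gene of the protease inhibitor alpha-2-macroglobulin, stood at 1332 CPM, and Adamtsl1, which encodes a secreted matrix protein of the ADAMTS-like family, at 854 CPM. The sub-cluster drew 72 control nuclei, 14 and 3 untraced nuclei and 2 and 3 hemisection nuclei. The other 3 sub-clusters followed the libraries: of their nuclei, 289 and 233 of the first and second came from the control, with 1 untraced nucleus, and 0 of the 103 nuclei of the third did. At a finer resolution 42 nuclei parted with genes of motile cilia, among them Dnah12 at 384 CPM and Hydin at 177 CPM. Foxj1, the master regulator gene of motile cilia, stood at 7.38 CPM in them, and Gfap at 2289 CPM. Of the 42 nuclei 37 came from the control, 3 and 1 from the untraced libraries and 1 from hemisection library 1. Dnah12 was uneven: all 594 control nuclei held 15 UMIs of it, while 4 nuclei of untraced library 1 held 39. In hemisection library 1 a single nucleus held all 11, with 0 UMIs of Aqp4, Gja1 and Gpc5 among its 1450.

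**Figure D2:**
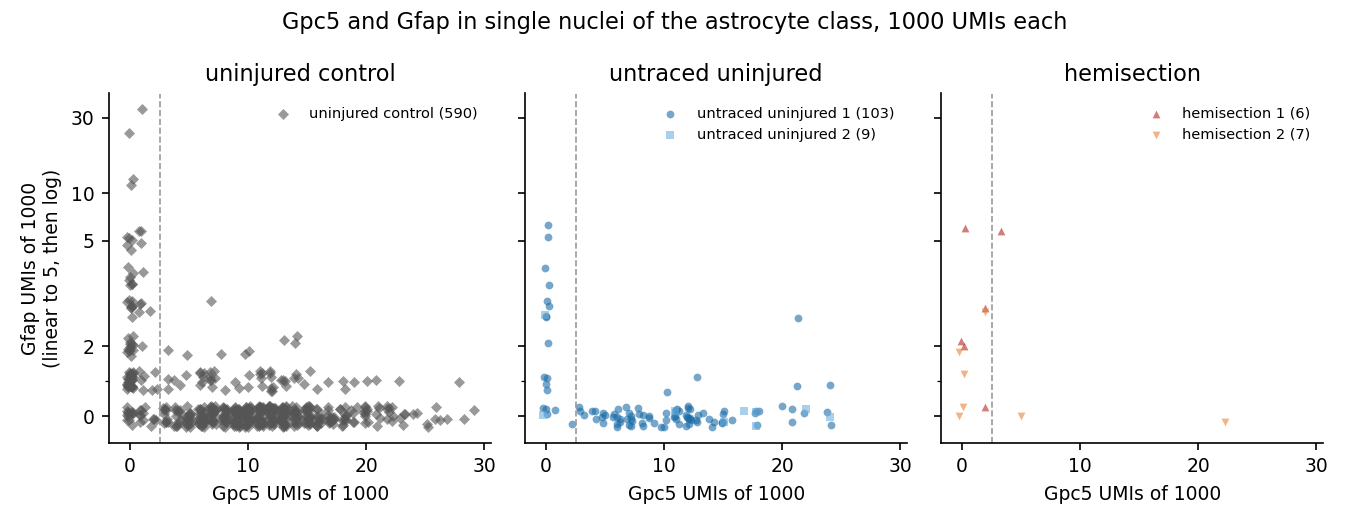
Each point is 1 nucleus of the class thinned to 1000 UMIs, with its Gpc5 UMIs across and its Gfap UMIs upward (linear to 5, then log; points jittered), in 3 panels by group. Right of the dashed line lie nuclei with 3 or more Gpc5 UMIs, which are 481 of 590 control nuclei and 3 of 13 hemisection nuclei.

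After hemisection most nuclei of the class were poor in Gpc5. In the uninjured libraries 0 to 2 Gpc5 UMIs of 1000 were found in 17.5% (untraced 1), 22.2% (untraced 2) and 18.5% (control) of nuclei. After hemisection it was 5 of 6 nuclei in library 1 and 5 of 7 in library 2. Slc7a10 had a UMI in 66.0%, 33.3% and 57.1% of the uninjured nuclei and in 0 of 6 and 0 of 7 hemisection nuclei at this depth, and unthinned it had 1 and 6 UMIs. Hemisection nuclei were not shallower, with medians of 5405 and 4422 UMIs before thinning against 2816 to 4047 in the uninjured libraries.

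The share of the class among non-neuronal nuclei did not pass a test. It was 6.51% (95% exact binomial interval 5.35 to 7.84) and 1.31% (0.629 to 2.39) in the untraced libraries, 5.17% (1.92 to 10.9) and 0.499% (0.201 to 1.03) after hemisection and 13.2% (12.3 to 14.3) in the control. These intervals cover counting error only. The replicates of each group lay far apart, and the hemisection and untraced values overlapped. Against the control the log2 ratio of shares after hemisection was −2.61 (SE 1.81, adjusted p = 0.394 in the edgeR quasi-likelihood test over 5 classes), and against the untraced libraries −0.87 (SE 1.62, adjusted p = 0.626). Neurons were 89.6% of the nuclei of hemisection library 1 and 7.15% of library 2, and the part of dissection and sorting in these shares was not tested. A lower share of a class and fewer recovered nuclei cannot be told apart here.

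To ask which genes of the class differed after the cut, UMIs were summed per library and the 13 hemisection nuclei were set against the control and, separately, against the untraced libraries. Both comparisons use the same hemisection libraries, and both references differ from them in another way too: the untraced ones are GFP-negative fractions of experiment 1, and the control has no second library. All 4489 non-neuronal nuclei of the control, the 594 of the class among them, have names with no barcode sequence, while its 2148 neurons have one. Whether both were prepared alike is not said, and the part of this in the comparisons with the control was not tested. Among 969 tested genes 51 were called against the control at an adjusted p under 0.05 in the edgeR quasi-likelihood test (5.26%), 10 higher (1.03%) and 41 lower (4.23%). Against the untraced libraries 25 were called (2.58%), 11 higher (1.14%) and 14 lower (1.44%). The median log2 fold change of all tested genes was 0.06 and −0.01. With all 3 uninjured libraries as 1 group, 2 of 608 genes were called (0.329%), A2m and Adamtsl1, both higher. The filter on low counts kept 969 of 19787 genes: a gene had to reach, in at least 1 library, the level of 10 UMIs in the library of median size. A2m, Adamtsl1, Abca1, Enox1, Fmn1, Lrmda, Adamts20 and the gene model Gm4951 reached it in hemisection libraries alone. They thus entered the test through the group where they are high and could only come out higher. Slc7a10, Gpr37l1, Igsf8, Itih3, S1pr1, Tmc7, Agt and Snhg11 reached it in uninjured libraries alone. These genes could likewise only come out lower after hemisection. Thinning to 1000 UMIs ended every call of these comparisons with the control and with the untraced libraries, and the replicate block every call against the untraced libraries.

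Gfap was higher after hemisection. It stood at 3040 and 943 CPM in hemisection libraries 1 and 2, at 465 and 463 CPM in the untraced libraries and at 538 CPM in the control, so the groups did not overlap. The log2 fold change was 1.59 against the control (SE 0.51, adjusted p = 0.0430) and 2.01 against the untraced libraries (SE 0.44, adjusted p = 0.00185). A Gfap UMI was seen in 12 of the 13 hemisection nuclei and the richest nucleus gave 28 of their 107 UMIs. Without hemisection library 1 the log2 fold changes were 0.50 and 0.80 and neither was called. Leaving out either untraced library also ended both calls, with values that stayed positive. The call against the control was further lost by DESeq2 (adjusted p = 0.282), with library size alone and without the filter, and the call against the untraced libraries without the filter.

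A2m was higher to a like degree in both hemisection libraries, though in each a single nucleus gave most of its UMIs. Like Adamtsl1, A2m reached the level of the filter in hemisection libraries alone, so its calls with the filter could only come out higher. It stood at 1770 and 1685 CPM after hemisection, 196 and 132 CPM in the untraced libraries and 245 CPM in the control. The log2 fold change was 2.52 against the control (SE 0.54, adjusted p = 0.000329), 3.17 against the untraced libraries (SE 0.48, adjusted p = 4.38e-07) and 2.95 against all 3 (SE 0.34, adjusted p = 0.00701). Without the filter the call against the control was lost (2.26, adjusted p = 0.142) and that against the untraced libraries was not (adjusted p = 0.00300). Leaving out 1 replicated library ended neither, but against all 3 the call was lost without hemisection library 1 or untraced library 1. The call against all 3 was also lost without the nuclei richest in markers of other classes and in nuclei outside the Gpc5-low sub-cluster. The UMIs of A2m came from 9 of 13 nuclei. A single nucleus gave 34 of 46 in hemisection library 1, and another gave 27 of 50 in library 2. Adamtsl1 stood at 654 and 910 CPM after hemisection, 127 and 265 CPM in the untraced libraries and 128 CPM in the control, a log2 fold change of 2.32 (adjusted p = 0.00529) and 2.21 (adjusted p = 0.00700). In hemisection library 2 a single nucleus gave 24 of its 27 UMIs, and without that library the call against the control was lost at 2.04. Against the untraced libraries it was lost when any of the 4 libraries was left out, at 1.48 to 2.27. Both calls were also lost without the filter (adjusted p = 0.290 and 0.593) and by DESeq2 (adjusted p = 0.146 and 0.187).

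Other single genes were called higher, among them Abca1 of the lipid transport list and Gpam of the energy metabolism list. Add3, which encodes gamma-adducin of the spectrin and actin skeleton, rose against both references, by 2.05 and 1.60 (adjusted p = 0.00949 and 0.0412), at 1501 and 606 CPM against 207 to 331 CPM. Abca1, the cholesterol exporter that loads lipoproteins, rose against the untraced libraries by 2.33 (adjusted p = 0.00257). It stood at 616 and 977 CPM against 145 and 165 CPM there and 212 CPM in the control, where the difference did not pass (1.63, adjusted p = 0.0618). Enox1 and Fmn1, the latter the actin nucleator formin 1, rose against the untraced libraries by 2.33 and 2.01 (adjusted p = 0.00685 and 0.0102), and Lrmda by 2.06 (adjusted p = 0.0197). Adamts20, a secreted metalloprotease gene, rose against the control by 2.57 (adjusted p = 0.0174), and Gpam, the first enzyme of glycerolipid synthesis, by 1.89 (adjusted p = 0.0174). Stk32a, Ehd4 and Ankrd6 rose against the control by 1.83, 1.99 and 1.75 but stood as high in the untraced libraries as after hemisection, at 578 and 1224 CPM against 1270 and 640 CPM for Stk32a. The calls of Add3, Abca1, Enox1, Fmn1, Lrmda, Adamts20, Gpam, Stk32a, Ehd4 and Ankrd6 were each lost when at least 1 library was left out.

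**Figure D3:**
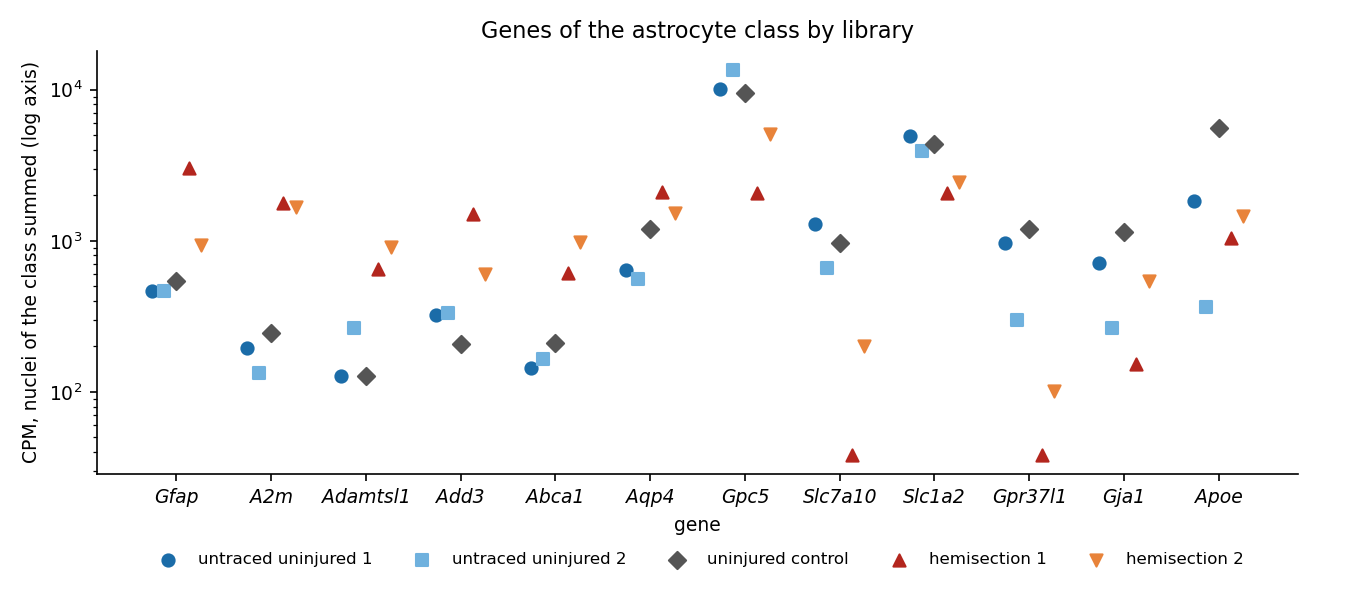
Level of 12 genes (CPM, log axis) in the class, 1 point per library, with 1 control, 2 untraced and 2 hemisection libraries. Both hemisection points lie above all uninjured points for Gfap, A2m, Adamtsl1, Add3, Abca1 and Aqp4, and below them for Gpc5, Slc7a10, Slc1a2 and Gpr37l1.

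Aqp4, which chose the class, was 2116 and 1516 CPM after hemisection against 644 and 562 CPM in the untraced libraries and 1204 CPM in the control. The log2 fold change was 1.48 against the untraced libraries and 0.30 against the control, given as a description since Aqp4 levels chose the class. Gja1 went the other way against the control. It stood at 154 and 539 CPM after hemisection and at 1138 CPM in the control, a log2 fold change of −1.98 (adjusted p = 0.0111), lost without hemisection library 1 (−1.39) and in 5 of 7 other settings, among them DESeq2 (adjusted p = 0.321) and thinning (−1.02). Against the untraced libraries (715 and 265 CPM) the groups overlapped, at −0.73 (adjusted p = 0.584). Gjb6, which encodes connexin 30, was −1.80 and −1.88 with adjusted p = 0.278 and 0.297.

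Several transporter genes fell. Of the 13 genes of glutamate and amino acid transport 9 were tested, 3 of them fell against the control and 1 against the untraced libraries, and their medians were −1.01 and −0.99. Over all tested genes 4.23% and 1.44% were called lower. Slc7a10 stood at 38.5 and 202 CPM after hemisection, against 1291 and 662 CPM in the untraced libraries and 965 CPM in the control. It fell by 3.25 and 3.13 on the log2 scale (adjusted p = 5.3e-05 and 0.000112). Without hemisection library 1 the values were −2.57 and −2.58 and neither was called, and the call against the untraced libraries was also lost without untraced library 1 (−2.50). Slc1a2, the main glutamate transporter GLT-1, stood at 2078 and 2460 CPM against 4943, 3904 and 4349 CPM in the uninjured libraries. It fell by 1.23 against the control (adjusted p = 0.0250) and had a log2 fold change of −1.05 against the untraced libraries (adjusted p = 0.0501). Slc6a11, the GABA transporter GAT-3, fell against the control by 1.92 (adjusted p = 0.0107).

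Of the 15 genes of potassium, sodium and water balance 7 were tested. Atp1b2, which encodes a sodium pump subunit, fell against the control by 2.00 (adjusted p = 0.00479), at 385 and 472 CPM after hemisection against 1402 CPM. It stood at 1149 and 827 CPM in the untraced libraries, where the log2 fold change was −1.32 (adjusted p = 0.124). Slc4a4 was at 100 and 114 UMIs after hemisection and had log2 fold changes of −0.25 and −0.34, neither called. Kcnj10, the inward rectifier potassium channel Kir4.1, was −1.28 and −0.56, neither called, at 2 and 10 UMIs.

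Gpc5 fell against both references by 1.70 and 1.78 (adjusted p = 5.49e-05 and 3.49e-06). It stood at 2078 and 5121 CPM after hemisection and between 9557 and 13499 CPM in the uninjured libraries. A single nucleus gave 127 of the 152 Gpc5 UMIs of hemisection library 2. Against the untraced libraries the call was lost without hemisection library 1 (−1.36) and without either untraced library. Kcnd2, a potassium channel gene, fell by 1.43 and 1.26 (adjusted p = 0.0132 and 0.0251) and Gria4, an AMPA glutamate receptor subunit gene, by 1.85 and 1.75 (adjusted p = 0.0204 and 0.0274). Both calls against the untraced libraries were lost when any of the 4 libraries was left out and in 6 of 8 other settings. Lsamp, the most abundant gene of the class, fell by 0.92 and 1.03 (adjusted p = 0.0404 and 0.0068).

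Gpr37l1, a receptor gene of mature astrocytes, had 1 and 3 UMIs after hemisection. That is 38.5 and 101 CPM, against 970 and 298 CPM in the untraced libraries and 1196 CPM in the control. It fell by 4.35 (adjusted p = 2.87e-06) and 3.40 (adjusted p = 0.000352), and the call against the control held in the 4 fits that left out 1 replicated library. Against the untraced libraries it was lost without hemisection library 1 or untraced library 1. Igsf8 had 0 UMIs in both hemisection libraries and 933 in the control. With the floor set at 3 counts for both hemisection libraries together, it was at least 7.19-fold lower than in the control and at least 6.77-fold lower than in the untraced libraries, although untraced library 2 had 1 UMI and library 1 had 159. The second of these calls was lost in 3 of the 4 fits that left out a library. Itih3, a hyaluronan-binding protein gene, had 2 UMIs after hemisection, 15.9-fold lower than the control (95% counting interval 4.39 to 131). S1pr1, a sphingosine 1-phosphate receptor gene, also had 2 UMIs, 12.1-fold lower (3.33 to 99.7), and Tmc7 had 3, 7.19-fold lower (2.45 to 34.9). Agt, the angiotensinogen gene, fell against the control by 3.71 (adjusted p = 5.3e-05), at 77.0 and 67.4 CPM against 768 CPM, and Cldn10 by 3.11 (adjusted p = 0.00479). Gpr37l1, Igsf8, Itih3, S1pr1, Tmc7 and Agt reached the level of the filter in uninjured libraries alone, so their calls could only come out lower. The calls of S1pr1, Tmc7 and Cldn10 against the control were each lost without hemisection library 1, without hemisection library 2 and by DESeq2. Those of Igsf8, Itih3 and Agt against the control were lost by DESeq2, and that of Itih3 also without hemisection library 1. Cd81, a tetraspanin gene, fell against both references by 2.90 and 1.69 (adjusted p = 4.76e-05 and 0.0470), and Gpld1 by 2.44 and 2.27 (adjusted p = 0.0115 and 0.0274). The calls of Cd81 and Gpld1 against the untraced libraries each held in 1 of 4 fits that left out a library and in 1 of 8 other settings, and Cd81 came to −0.39 at its weakest.

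The 6 grey-matter and 6 white-matter markers were then counted. Of 5 tested grey-matter markers 4 fell against the control, Slc1a2, Slc7a10, Slc6a11 and Gpc5, and 2 against the untraced libraries, Slc7a10 and Gpc5. Over all tested genes 4.23% and 1.44% were called lower. Slc1a2, Slc7a10 and Slc6a11 are also the called genes of the transport list, so the lists are not separate results. The next sums are of the grey-matter markers. Their summed level was 4425 and 8760 CPM after hemisection and 16589 to 18892 CPM in the uninjured libraries. The white-matter markers summed to 6426 and 3504 CPM after hemisection and to 1390 to 2282 CPM before injury. Of 4 tested, Gfap rose against both references, with Aqp4 not counted in these calls since it chose the class. The sum does include Aqp4, with 55 of 167 and 45 of 104 UMIs after hemisection. In the untraced libraries Aqp4 gave 263 of 689 and 17 of 42 UMIs, and in the control 2897 of 5491. In hemisection library 2 the nucleus with the most grey-matter UMIs held 173 of 260.

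The difference was also seen among nuclei outside the Gpc5-low sub-cluster, of which 8 were left after hemisection, 1 of them with 17 microglial marker UMIs. There Gfap stood at 3106 and 518 CPM after hemisection against 84.1 to 281 CPM in the uninjured libraries, and A2m at 2329 and 864 CPM against 0 to 82.4 CPM. Slc7a10 stood at 51.8 and 345 CPM against 841 to 1503 CPM. Gpc5 itself stood at 2795 and 8693 CPM against 10938 to 17159 CPM, so these nuclei were not matched in kind. Among these nuclei 22 of 700 genes were called against the control, 4 higher and 18 lower, and 15 against the untraced libraries, 10 higher and 5 lower. Inside the sub-cluster, with 2 and 3 hemisection nuclei, Gfap was 2850 and 1544 CPM against 1861 to 2445 CPM in the uninjured libraries, which overlap. A2m was 150 and 2844 CPM there against 620 to 1360 CPM. With 13 nuclei, a change within nuclei and a different mixture of kinds cannot be told apart.

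Reactive genes other than Gfap were mostly too low to test. Of 37 listed genes 4 were tested and Gfap alone was called. The summed level of all 37, Gfap included, was 7966 and 4717 CPM after hemisection and 1823 to 2349 CPM before injury. Gfap alone gave 79 of 207 and 28 of 140 of these UMIs after hemisection. It gave 190 of 757 and 14 of 71 in the untraced libraries and 1294 of 4387 in the control. Plce1, a phospholipase C gene, had log2 fold changes of 1.41 and 0.73 (adjusted p = 0.0828 and 0.455). Cd44, a hyaluronan receptor gene, had 8 UMIs in each hemisection library, and Vim, which encodes the filament protein vimentin, had 8 and 2. No gene was called among the 12 tested transcription factors, where the median was 0.16 against the control, or the 7 tested growth factor and cytokine genes.

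Interferon response genes reached 2732 and 2359 summed CPM after hemisection over 31 measured genes, against 369 to 596 CPM in the uninjured libraries. Most of it came from few nuclei. In hemisection library 1 a single nucleus gave 57 of 71 UMIs, and without it the sum was 674 CPM. In library 2 the richest gave 36 of 70, and the remainder stood at 1346 CPM. Iigp1, an interferon-inducible GTPase gene, had 8 and 12 UMIs after hemisection and 1 in all uninjured nuclei, and 7 and 11 of them lay in 1 nucleus of each library. It was the only list member tested and did not pass (adjusted p = 0.268 and 0.324). Gm4951, a gene model not on the list, was singled out after its values were seen. It had 28 and 2 UMIs after hemisection and 8 in all uninjured nuclei. In library 1, 27 of its 28 UMIs lay in the same nucleus that held 7 Iigp1 UMIs. It reached the level of the filter in hemisection library 1 alone. Its calls (adjusted p = 0.0276 and 0.00700) could thus only come out higher and rest largely on that nucleus.

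**Figure D4:**
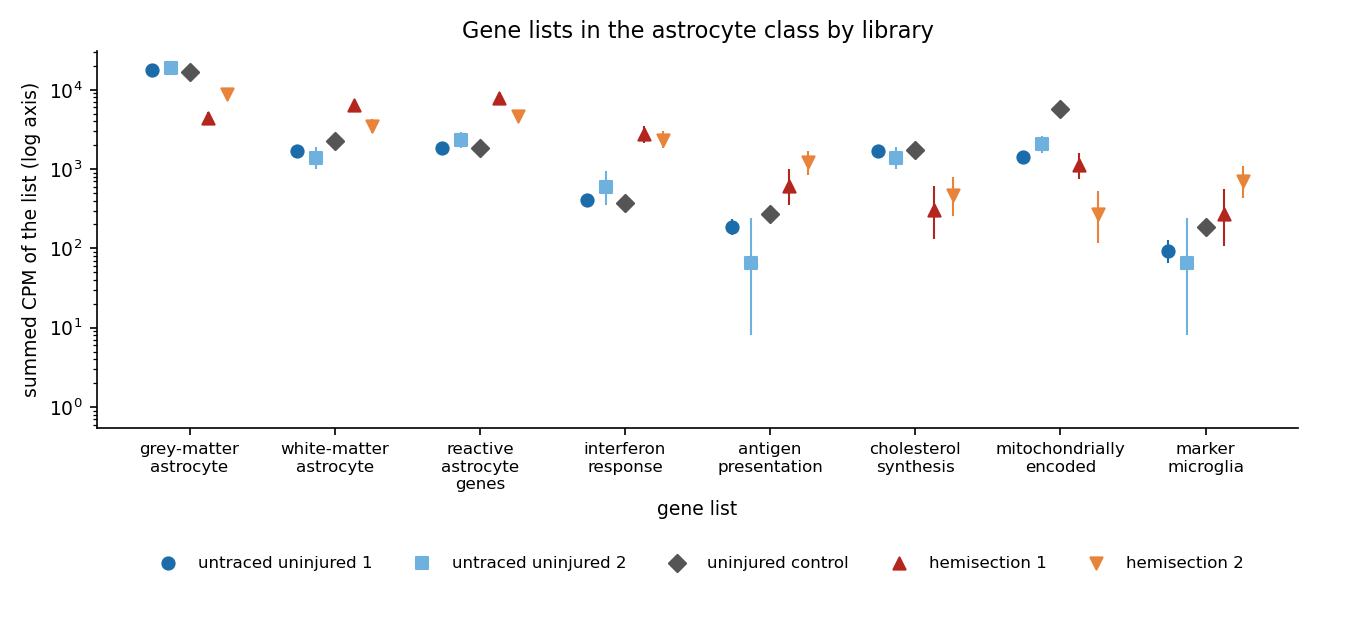
Summed level of 8 gene lists in the class (CPM, log axis), 1 point per library with its 95% exact Poisson interval, which covers counting error only. Both hemisection libraries lie above the uninjured ones for white-matter, reactive, interferon and antigen presentation genes and below them for grey-matter, cholesterol synthesis and mitochondrially encoded genes. The white-matter list includes Aqp4, which chose the class, and both the white-matter and the reactive list include Gfap.

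Microglial marker RNA was higher after hemisection too, but most so in library 2, while the interferon list was highest in library 1. The 6 microglial markers summed to 269 and 708 CPM after hemisection, 93.1 and 66.2 CPM in the untraced libraries and 187 CPM in the control. In hemisection library 1 Cx3cr1, Tmem119 and Csf1r were at 0, and in library 2 Tmem119 was. In library 2 a single nucleus held 17 of the 21 marker UMIs, with 9 of C1qa, and it held 11 of the 12 Iigp1 UMIs too. Without it the microglial markers stood at 168 CPM, the interferon list at 1932 CPM, the antigen presentation list at 840 CPM in place of 1213 CPM and the complement list at 1134 CPM in place of 1415 CPM. The part of microglial RNA in what remains was not tested. Complement had 3 tested genes and none was called (0 of 3, smallest adjusted p 0.392 over both references), and C4b had 9 and 8 UMIs after hemisection with log2 fold changes of 1.53 and 1.48.

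Genes of cholesterol synthesis had lower summed levels after hemisection, which were not tested. The 21 genes, among them Hmgcs1, had 8 and 14 UMIs after hemisection, or 308 and 472 CPM, against 1693, 1390 and 1747 CPM in the uninjured libraries. Both hemisection values lay below the 3 others, and 16 and 13 of the genes had 0 UMIs. The filter left 0 of the 21 to the test, and in a fit without it 1 of 21, Cyp51, was called lower against the control. Msmo1, a sterol oxidase gene, had 1 and 2 UMIs after hemisection and 669 in the control, and Cyp51, the lanosterol demethylase gene, had 0 and 0 against 425. Uninjured nuclei of the Gpc5-low sub-cluster had less of these transcripts as well, with 884, 310 and 1151 CPM against 1682 to 1835 CPM in other uninjured nuclei. Outside the sub-cluster the hemisection libraries had 362 and 691 CPM.

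Of the 17 lipid transport genes 6 were tested, and Apoe and Clu fell against the control, where 4.23% of all tested genes were called lower. Against the untraced libraries Abca1 alone was called, and it was higher. Apoe, the main lipid carrier made by astrocytes, stood at 1039 and 1449 CPM after hemisection and at 5594 CPM in the control, a fall of 2.46 (adjusted p = 8.18e-06). The untraced libraries stood at 1844 and 364 CPM, and there the log2 fold change was −0.06 (adjusted p = 0.952). Clu, another carrier protein gene, fell against the control by 2.80 (adjusted p = 0.000582) and was at −1.71 against the untraced libraries (adjusted p = 0.124).

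Some falls against the control went with RNA of other cells and of mitochondria in the control. The 2 uninjured references differed in 15 of 969 genes (1.55%), 13 higher (1.34%) and 2 lower (0.206%) in the control. Among the higher were Apoe, Agt, Snap25 of synapses, the neuronal RNA gene Snhg11 and 4 mitochondrially encoded genes. Snhg11 was at 1070 CPM in the control and at 0 to 154 CPM in the 4 other libraries. The 8 oligodendrocyte markers summed to 1984 CPM in the control, 524 and 827 CPM in the untraced and 462 and 539 CPM in the hemisection libraries, where Mobp, Mog and Mag were at 0. The 7 measured neuronal markers summed to 2157 CPM in the control, 1144 and 2779 CPM in the untraced and 4579 and 1381 CPM in the hemisection libraries, most of it Nrxn3, while Grin1 and Gad1 were at 0 after hemisection. Mitochondrially encoded transcripts summed to 5649 CPM in the control and to 270 to 2051 CPM elsewhere. Of 7 tested, 6 fell against the control and 0 against the untraced libraries, where 4.23% and 1.44% of all tested genes were called lower. The part of this RNA in the falls of Snhg11, Apoe and Agt was not tested. Experiment and reference cannot be told apart in this comparison.

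The hemisection response of the class was then compared with that of oligodendrocytes and of microglia of the same libraries, with the control as reference. On their own, 907 of 11924 genes were called in oligodendrocytes (7.61%) and 1686 of 8283 in microglia (20.4%). Against oligodendrocytes the response differed in 12 of 11832 genes (0.101%), 4 with a higher (0.0338%) and 8 with a lower change in the class (0.0676%). Of the 8 lower genes, B2m, H2-D1, H2-K1, Tap1 and Tap2 belong to antigen presentation by MHC class I, the display of peptides on the cell surface. H2-K1, a class I heavy chain gene, stood at 325 and 401 CPM in oligodendrocytes after hemisection against 14.3 CPM in the control. In the class it stood at 192 and 337 CPM against 75.2 CPM. The difference between the responses was −3.36 (adjusted p = 0.0307), where the median over all genes was −0.56. For B2m, the class I light chain gene, it was −4.23 (adjusted p = 0.00753), with 1 and 5 UMIs in the class. For H2-D1 it was −3.73 (adjusted p = 0.0432), for Tap1 −5.46 (adjusted p = 0.0375) and for Tap2 −4.95 (adjusted p = 0.0276), the last pair of genes encoding the peptide transporter, each with 2 UMIs in the class after hemisection. None of these 5 calls was made without hemisection library 2, where the differences were −3.19 to −14.09, and B2m and Tap2 alone were called without hemisection library 1. Against microglia the same genes had differences of −0.82 to −1.41, none called.

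Apoe differed from both classes. In oligodendrocytes it stood at 801 and 995 CPM after hemisection against 430 CPM in the control, and in microglia at 8260 and 7281 CPM against 686 CPM. The difference of responses was −3.73 against oligodendrocytes (adjusted p = 0.000487) and −6.31 against microglia (adjusted p = 0.00239). Both differences use the control, where Apoe of the class was highest, at 5594 CPM. Against microglia 34 of 11081 genes differed (0.307%), 22 higher (0.199%) and 12 lower (0.108%). The lower ones included Gpnmb, a glycoprotein gene of phagocytes, which was at 1944 and 1578 CPM in microglia after hemisection and at 38.5 and 101 CPM in the class.

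**Figure D5:**
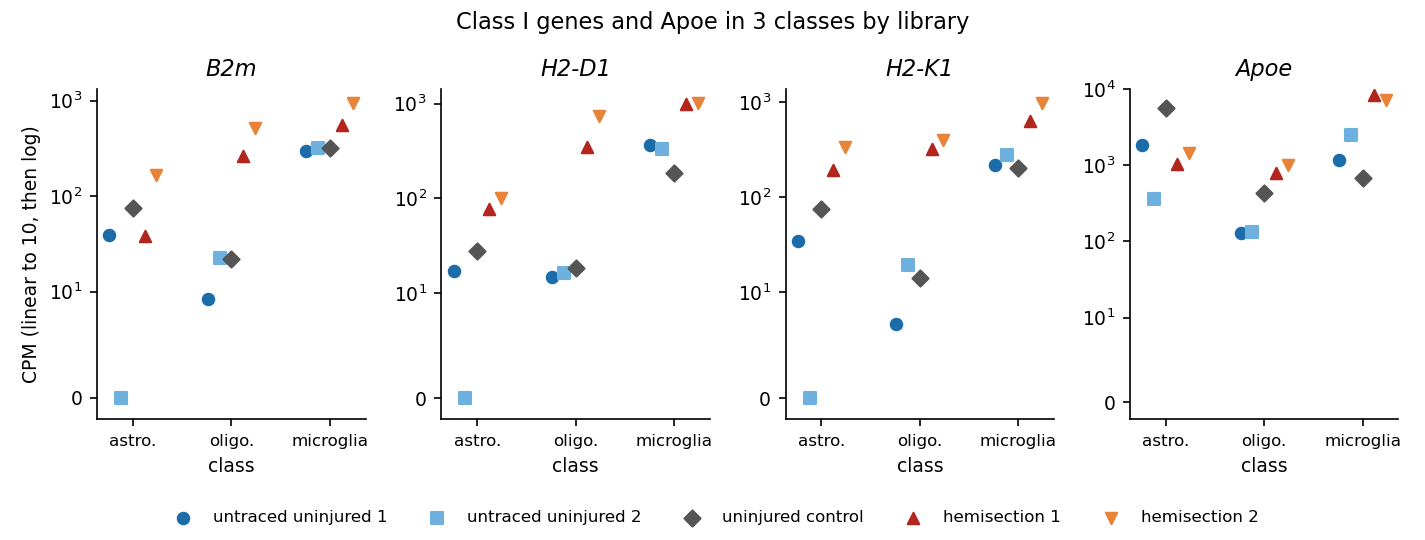
Level of 3 MHC class I genes and of Apoe (CPM, linear to 10, then log) in the class, oligodendrocytes and microglia, 1 point per library. In oligodendrocytes both hemisection points of the class I genes lie above 200 CPM and all uninjured points below 25 CPM, whereas in the class B2m is at 38.5 and 168 CPM after hemisection.

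For Gfap, the gene that defines the reactive state, the promoter window of RefSeq (GRCm38.p6, chr11:102897151-102897450, minus strand, 250 bases before to 50 after a transcript start) is shown since Gfap is the marker on which the comparison turns. The window was searched on both strands for TTCCNGGAA, a palindromic form of the STAT factor motif, and the match is in capitals:
Gfap: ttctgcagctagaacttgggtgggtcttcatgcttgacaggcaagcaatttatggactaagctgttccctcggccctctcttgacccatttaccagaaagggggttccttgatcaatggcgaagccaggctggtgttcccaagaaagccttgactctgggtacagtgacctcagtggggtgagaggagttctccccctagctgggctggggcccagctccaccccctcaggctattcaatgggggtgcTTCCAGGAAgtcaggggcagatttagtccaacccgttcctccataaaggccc
The motif begins at base 249 of 300, counted from 1 at the 5′ end, and overlaps the transcript start. It was found in 1.15% of the 32851 promoters of the table. Of 28 named genes searched for, 24 were in the table and 2 held the motif, Gfap, which rose, and Agt, which fell against the control. A match is a description of letters and shows no binding. A2m and Adamtsl1 are not in the table. In GENCODE M21 (GRCm38) A2m spans chromosome 6, 121635376 to 121679227, Adamtsl1 chromosome 4, 85514172 to 86428385, Slc7a10 chromosome 7, 35186385 to 35201114, and Gpc5 chromosome 14, 115092215 to 116525179, all protein-coding.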

How the data were processed

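The deposited matrix holds UMI counts per gene and nucleus. Per the submitters' processing notes, the authors' tools were Cell Ranger 4.0.0 and Seurat 3 on mm10 and GRCm38. The sources used here do not say how nuclei were filtered, doublets treated and classes annotated. Classes were taken from the deposited annotation, and the class, its gene lists and the comparisons were chosen with earlier results of these data known.

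Counts were summed per library and class. Libraries with at least 5 nuclei of the class entered, since a minimum of 20 left no residual degrees of freedom. Genes were tested with edgeR 4.0.16 (R 4.3.3; filterByExpr with a minimum count of 10 and total of 15, TMM, quasi-likelihood test, Benjamini-Hochberg adjustment) with 2 residual degrees of freedom, and the lone control library is assumed to vary like the replicated groups. Every adjusted p for genes and shares is from this test. Differences between classes were fitted as interactions with the library as a block. DESeq2 1.42.0 was an alternative, and scanpy 1.11.5 made the sub-clusters. Scripts were tested on simulated data. Named genes were Aqp4, Gja1 and Gfap, up to 10 called genes each way by fold change whose groups did not overlap and averaged 20 CPM or more (5 each way between classes), and called or most abundant members of the lists. Of the barcode sequences, 4 are shared between libraries, and 0 of these are in the class.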

Additional observations from a re-analysis of the deposited data

Results flagged for a closer look

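The response to hemisection differed between the class and oligodendrocytes in 12 genes by the interaction test in edgeR. The differences on the log2 scale were 4.85 for Sphkap, 3.74 for Tshz2, 3.52 for Arhgef4, −4.60 for Trim12a, −3.73 for Apoe, −3.73 for H2-D1 and −3.36 for H2-K1. The class rests on 13 hemisection nuclei here, and without hemisection library 2 the count was 2. The call of Apoe held in all 6 other settings, and that of Sphkap in 2.

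Between the class and microglia 34 genes differed. The differences were 9.0 for Kif6, 6.80 for D7Ertd443e, 6.42 for Igkc, 5.47 for Adcy8, 5.21 for Setbp1, −11.66 for Actr3b, −10.64 for Gpnmb, −6.31 for Apoe, −5.05 for Mmp14 and −4.89 for Cd63. Igkc, an immunoglobulin light chain gene of plasma cells, had 4 and 9 UMIs in the hemisection libraries and 1 in all uninjured nuclei of the class. After hemisection it stood at 154 and 303 CPM in the class, 139 and 596 CPM in oligodendrocytes and 121 and 555 CPM in microglia. In the control Igkc stood at 0.416 CPM in the class and at 110 CPM in microglia, so its level after hemisection was not particular to the class. Actr3b had 0 UMIs after hemisection, at least 1.88-fold lower than the control with a floor of 3 counts. Kif6 had 0 UMIs in microglia of both hemisection libraries and 39 in those of the control, and its call was lost in 5 of 6 other settings. Gpnmb had 0 UMIs in control microglia and 161 and 1971 after hemisection. The fitted differences of Actr3b, Kif6 and Gpnmb thus rest on groups at 0 and are no bounds. The calls of Igkc, Adcy8, Setbp1 and Cd63 were each lost without hemisection library 2, those of Apoe, D7Ertd443e and Actr3b without either hemisection library, and that of Mmp14 without either and without the filter.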

How the results depend on the processing

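The counts of called genes moved with most settings. Against the control (51) they were 15 by DESeq2, 31 with library size alone, 22 in nuclei outside the Gpc5-low sub-cluster and 0 of 181 after thinning to 1000 UMIs. Leaving out 1 library gave 29 to 56. Against the untraced libraries (25) they were 8, 14, 15 and 0, and 11 without a filter. Leaving out 1 library gave 1 to 19. With the replicate block 0 of 558 genes were called; same-numbered libraries share only a number (Pearson 0.0084 over 558 genes). Between the uninjured references (15) they were 2 by DESeq2, 0 after thinning and 0 with at least 10 nuclei per library, and 6 to 91 with 1 library left out. Against all uninjured libraries (2) they were 21 by DESeq2, 0 outside the sub-cluster, 81 without a filter, 11 after thinning, 0 without nuclei rich in other markers and 27 without the microglial nucleus, and 0 to 4 with 1 library left out. Against oligodendrocytes (12) they were 48 with library size alone (37 higher, 11 lower) and 7 without a filter, and 2 to 24 with 1 library left out. Against microglia (34) they were 233 (212 higher, 21 lower), 20, and 3 to 140. With library size alone the split was 9 higher and 5 lower against the untraced libraries, 10 and 0 between references. The median of all genes moved from 0.06 to 0.25 against the control, from −0.56 to −0.07 against oligodendrocytes and from −0.48 to 0.13 against microglia.

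The share against the untraced libraries reversed to 0.38 without hemisection library 2 and 0.79 without untraced library 1, within a range of −2.98 to 0.79. Against the control it ranged from −4.71 to −1.35. Gja1 against the untraced libraries reversed to 0.10 after thinning and 0.32 without untraced library 1, with −2.08 to 0.32 over the fits that left out 1 library. Of the 19 genes named for their call in each, thus without Gja1, all kept their sign when 1 library was left out, and 6 and 1 were called each time. The cause of these changes was not tested. A minimum of 20 nuclei and control nuclei with barcode sequences alone gave no fit. With 13 nuclei and 1 UMI worth 33.7 to 38.5 CPM, low genes could not be tested.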
